A study of Mus musculus with 18 samples.

Results

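The 82 genes described here encode nuclear subunits of oxidative phosphorylation, the machinery of the inner mitochondrial membrane that turns electrons from nutrients into ATP. They were taken by symbol from an expression table of 21761 genes in mouse B lineage cells. Symbols starting with Nduf and the letter a, b, c, s or v before a digit gave 37 genes of complex I, Sdha to Sdhd the 4 genes of complex II, and symbols starting with Uqcr 8 genes of complex III. Symbols starting with Cox4 to Cox8 and a letter a, b or c gave 16 genes of complex IV, and those starting with Atp5 gave 17 of complex V. The symbols set limits to the list. The complex IV subunit Cox4i1, the complex I subunit Ndufab1 and the complex III subunit Cyc1 were missed by it, Ndufa4 is now mostly counted to complex IV, and Atp5s and Atp5sl are factors rather than subunits. Subunits encoded by the mitochondrial genome were not analysed here.

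In the respiratory chain, complex I (NADH dehydrogenase) and complex II (succinate dehydrogenase) pass electrons to ubiquinone, complex III (the cytochrome bc1 complex) hands them to cytochrome c, and complex IV (cytochrome c oxidase) delivers them to oxygen. Complexes I, III and IV pump protons, and complex V (ATP synthase) uses the proton gradient to make ATP. Activated B cells and antibody-secreting plasma cells are known for a high demand for energy and for mitochondrial respiration.

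RNA-seq was performed on 3 cell types, each from Dnmt3-sufficient (Dnmt3afl/fl, Dnmt3bfl/fl, without Cre) and Dnmt3-deficient (Dnmt3afl/fl, Dnmt3bfl/fl, with Cre) littermates of a mixed B6;129S4 background aged 8 to 12 weeks, with 3 libraries in each of the 6 groups. Mice of both genotypes carried the floxed alleles of the de novo DNA methyltransferases, and Cre acts in the B lineage from its early stages on. Naive B cells (nB; B220+ Fas- GL7-) came from lymph nodes of unimmunized mice. Germinal center B cells (GCB; B220+ Fas+ GL7+ PE+, the lymph nodes of 2 mice pooled per sample) and bone marrow plasma cells (BMPC; CD138+) were sorted 30 days after immunization with phycoerythrin (PE), a fluorescent protein used as antigen, in complete Freund's adjuvant. Cell type therefore cannot be told apart from tissue and immunization in these samples. RNA of 5000 sorted cells was amplified for each library. By the study's methods each nB and BMPC library was made from 1 mouse. Which libraries share a litter or experiment is not given in the sources used here, so p-values measure the spread between these libraries. Each nB and GCB group held 2 female libraries and 1 male one and each BMPC group 1 and 2, so sex was not balanced across cell types, and with sex in the fit 56 members (Dnmt3-sufficient) and 35 (Dnmt3-deficient) passed in BMPC against nB.

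Values are FPKM, read counts scaled by exon length and by the reads on all listed genes, and the depth recovered from them ranged over 6692516 to 8987922 reads for nB and 7644544 to 8903872 for GCB. BMPC were shallower, with 2196198 to 3803197 reads in Dnmt3-sufficient libraries and 1355231 to 2265945 in Dnmt3-deficient ones. The summed FPKM of 9 B cell markers was highest in nB (7909 to 8907), that of 8 germinal center markers in GCB (1298 to 1498) and that of 7 plasma cell markers in BMPC (18920 to 51500). BMPC also held erythroid RNA (1534 to 7236 FPKM over 7 markers, against at most 289.8 in nB and 48.2 in GCB) and neutrophil RNA (21.3 to 688.5 over 10 markers, all at 0 in nB). Macrophage markers (9 genes) summed to 63.45 to 227.4 FPKM in BMPC, against at most 73.9 in nB and 19.7 in GCB. The sums of 7 T cell markers overlapped, at 74.3 to 218.3 in BMPC, 60.2 to 154.3 in nB and 77.4 to 134.3 in GCB. The targeted Dnmt3a was at 2.35 to 5.18 FPKM in Dnmt3-sufficient and 2.24 to 4.34 in Dnmt3-deficient nB, and below 1 FPKM in every GCB library. Values of Dnmt3a over the whole gene did not separate the genotypes. Dnmt3b, the other target, overlapped in nB (1.175 to 6.41 FPKM in Dnmt3-sufficient and 0.521 to 8.145 in Dnmt3-deficient libraries). It also overlapped in BMPC (0 to 1.37 and 0 to 9.29). In GCB it lay higher in Dnmt3-deficient libraries, at 0.744 to 1.10 against 0 to 0.676 FPKM. Reads outside the deleted exons cannot check a floxed allele.

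Oxidative phosphorylation genes took up a larger share of the reads in GCB than in nB, and in Dnmt3-sufficient mice a larger one still in BMPC. In Dnmt3-sufficient mice they held 1.03 to 1.1% of nB reads, 1.86 to 1.97% of GCB reads and 2.39 to 2.61% of BMPC reads. The Dnmt3-deficient shares were 0.955 to 1.198%, 1.575 to 1.899% and 1.642 to 2.034%, so GCB and BMPC overlapped. The summed FPKM of all members was 11200 ± 501.3 (SD, n = 3) in nB, 20020 ± 939.9 in GCB and 30520 ± 1860 in BMPC, a ratio of 1.79 for GCB to nB and 2.725 for BMPC to nB. In Dnmt3-deficient mice the sums were 11160 ± 1506, 17910 ± 2422 and 23010 ± 2958. The libraries of the 3 cell types did not overlap in this sum in Dnmt3-sufficient mice, and in Dnmt3-deficient mice BMPC replicate 2 (19650) lay just below the highest GCB library (19790). Read shares and FPKM are both relative to the reads on listed genes. The paper reports that immunoglobulin made up a much larger part of mRNA in BMPC than in nB or GCB. Whether immunoglobulin genes are among those listed was not tested, so these values do not give shares of all RNA. These are bulk samples, so fewer cells of a type and less RNA per cell cannot be told apart.

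**Figure D1:**
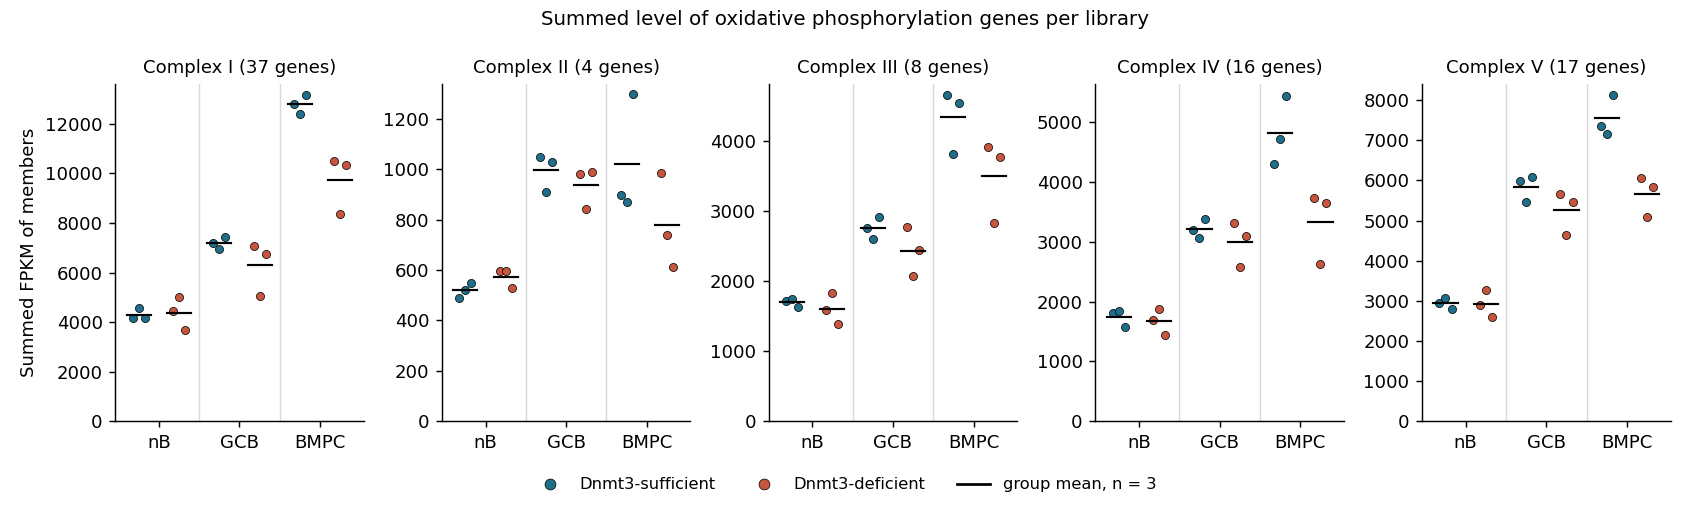
Summed FPKM of the members of each complex (y axis, linear from 0) in each of the 18 libraries, by cell type and genotype. Points are libraries and bars are means of 3. Complex I rose from 4170 to 4561 in Dnmt3-sufficient nB to 12390 to 13150 in BMPC, while complex II overlapped between GCB and BMPC.

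The 5 complexes did not move alike. In Dnmt3-sufficient mice the ratio of summed FPKM in GCB to nB was lowest for complexes III (1.62) and I (1.67) and highest for complex V (1.99), whereas the ratio of BMPC to GCB was highest for complex I (1.775) and was 1.03 for complex II. Complex I summed to 4182, 4561 and 4170 FPKM in the nB libraries, 7206, 6949 and 7447 in GCB and 12810, 12390 and 13150 in BMPC. Complex II, the only one that also works in the citric acid cycle, summed to 489, 522 and 547 FPKM in nB, 1048, 911.2 and 1028 in GCB, then 899, 870 and 1300 in BMPC. Complex I thus separated all 3 cell types in every library, and complex II separated nB from the others but not GCB from BMPC.

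Of the 82 members, 78 exceeded 1 FPKM in 2 or more libraries and were tested (36 of complex I, 4 of II, 8 of III, 13 of IV and 17 of V). The other 4 were at or close to 0. Cox7b2, Cox8b and Cox8c, isoforms known from testis or muscle, had no read in any of the 18 libraries, and Ndufa4l2, a relative of Ndufa4 known as a hypoxia-induced gene, was at 5.09 FPKM in Dnmt3-deficient BMPC replicate 1, 0.471 in Dnmt3-deficient GCB replicate 3 and 0 in the others. The most abundant members, by mean FPKM over all 18 libraries, were Ndufa4 (637) among the complex I symbols, Sdhb (354) in complex II, Uqcrb (704.9) in complex III, Cox6b1 (505) in complex IV and Atp5o (576) in complex V. Least abundant were Ndufa4l2 (0.309), Sdhc (84.0), Uqcrfs1 (22.8), Cox7b2 (0) and Atp5s (13.7). By group means, 58 of the 82 were ordered nB, GCB, BMPC from low to high in Dnmt3-sufficient mice and 50 in Dnmt3-deficient mice, 48 of them in both.

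**Figure D2:**
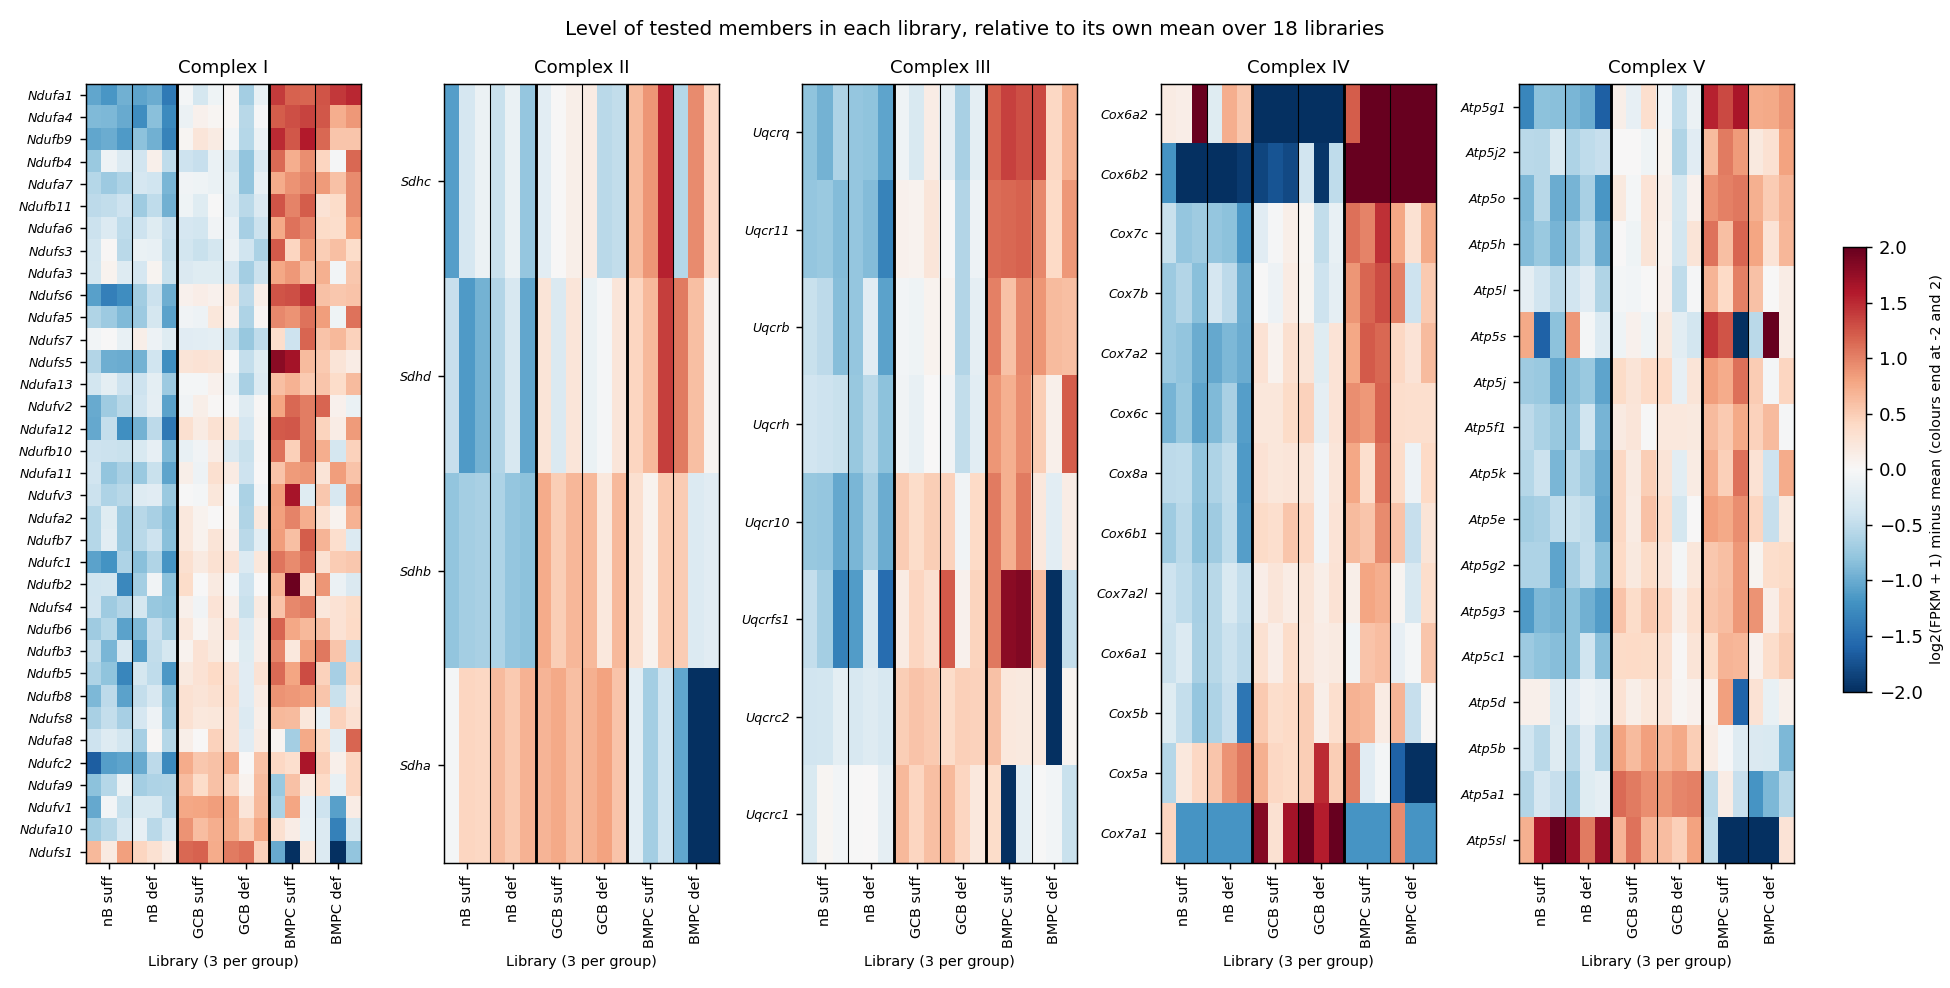
Level of 77 of the 78 tested members (rows, by complex) in each of the 18 libraries (columns) as log2(FPKM + 1) minus the member's own mean, with colours cut at -2 and 2. Most rows go from low in nB to high in BMPC, and a few rows at the bottom of each complex, such as Sdha, Ndufs1, Atp5a1 and Atp5sl, are lower in BMPC than in GCB.

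In the germinal center, most members were higher than in naive B cells. Changes are differences of log2(FPKM + 1), and a gene was called where limma, adjusted over all 11522 genes tested, gave 0.05 or less and the size of the difference reached 1. In Dnmt3-sufficient mice 27 members rose (11 of complex I, 1 of II, 2 of III, 4 of IV and 9 of V), against 12.1% of all genes, and 1 fell, against 16.6%. The median change was 0.84 over the members and -0.11 over all genes tested. In Dnmt3-deficient mice 15 rose (3, 1, 2, 5 and 4 by complex), against 10.7%, and 1 fell, against 14.7%, with a median of 0.65 and -0.13 over all genes. Without the minimum change, 58 and 53 members were higher, against 16.3% and 14.5% of all genes. The count of 16 in Dnmt3-deficient mice was 10 without Dnmt3-deficient GCB replicate 1.

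In Dnmt3-sufficient mice complex V had the largest share of members that rose in the germinal center, 9 of 17. Atp5a1 and Atp5b, which form the catalytic head of ATP synthase, rose together. Atp5a1 was at 187, 224 and 204 FPKM in Dnmt3-sufficient nB and 619, 581 and 535 in GCB, a change of 1.49 ± 0.13 (SE, limma, adjusted p = 6.02e-08), and in Dnmt3-deficient mice at 176, 239 and 249 and at 520, 557 and 568 (1.32 ± 0.13, adjusted p = 3.32e-07). Atp5b rose from 298, 271 and 329 to 689, 614 and 696 FPKM (1.15 ± 0.12, adjusted p = 5.3e-07). All GCB libraries lay above all nB libraries for both genes. Atp5g3, which makes the proton-carrying c-ring, changed by 1.49 ± 0.12 and 1.26 ± 0.12 in the 2 genotypes.

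In the electron transfer complexes the changes were uneven, also between subunits that work side by side. Sdhb, the iron-sulfur subunit of complex II, was at 189.7, 204 and 208 FPKM in Dnmt3-sufficient nB and 546, 462 and 522 in GCB (1.34 ± 0.14, adjusted p = 4.3e-07 by limma), while Sdha, the flavoprotein it binds, was at 123, 169 and 169 and at 203, 213 and 193 (0.41 ± 0.16, adjusted p = 0.053). The GCB libraries were all above the nB libraries for both, but only Sdhb passed. Uqcrfs1, the Rieske iron-sulfur protein of complex III, passed at much lower levels, from 12.2, 10.4 and 6.19 FPKM to 19.4, 23.7 and 21.7 (1.14 ± 0.36, adjusted p = 0.0197), and in Dnmt3-deficient mice by 1.57 ± 0.36 (adjusted p = 0.00239). Ndufc2, an accessory subunit of complex I, went from 43.4, 64.3 and 66.2 FPKM to 234, 202 and 208 (1.89 ± 0.22, adjusted p = 2.33e-06). Ndufs7, which carries the last iron-sulfur cluster before ubiquinone, did not follow, with 213, 224 and 199.8 FPKM in nB and 190.2, 192 and 195 in GCB. Its change was -0.14 ± 0.15, and -0.50 ± 0.15 in Dnmt3-deficient mice.

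**Figure D3:**
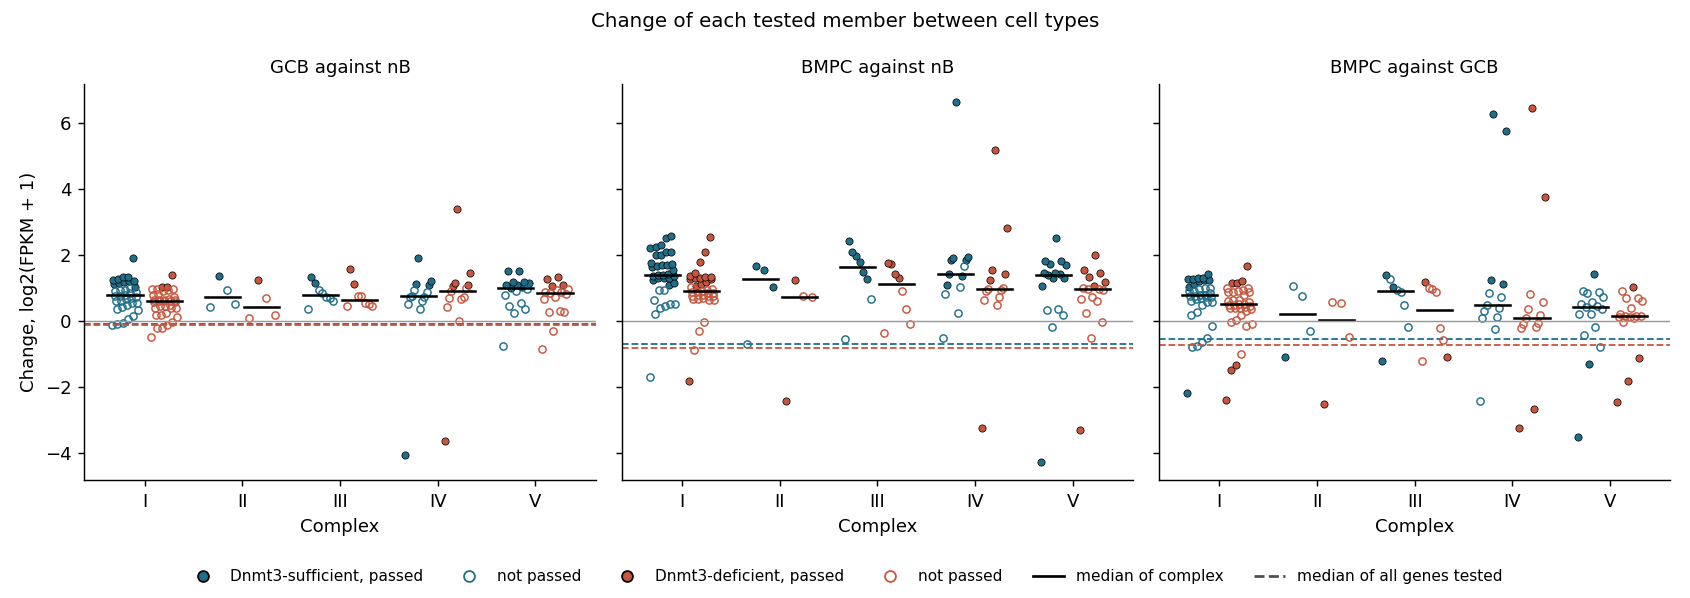
Change of each tested member on the log2(FPKM + 1) scale (y axis) by complex, for GCB against nB, BMPC against nB and BMPC against GCB in each genotype. Filled points passed the test, black bars are medians of a complex and the dashed line is the median of all genes tested. In BMPC against nB of Dnmt3-sufficient mice the members' median is 1.39 and that of all genes -0.70.

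Plasma cells held the highest levels of most subunits. In Dnmt3-sufficient mice 56 members were higher in BMPC than in nB (27 of complex I, 3 of II, 6 of III, 8 of IV and 12 of V), against 7.94% of all genes, and Atp5sl alone was lower, against 19.2%. The median was 1.39 over the members and -0.70 over all genes. In Dnmt3-deficient mice 30 members were higher (14, 1, 4, 5 and 6), against 5.21%, and 4 were lower, against 21.6%, with medians of 0.92 and -0.84. Of the members higher in either genotype, 29 passed in both, which were 51.8% of the Dnmt3-sufficient and 96.7% of the Dnmt3-deficient list. The matching overlap over all genes was not counted. Erythroid and neutrophil RNA moved with this contrast, and its part in the counts was not tested. Scaling by the median of ratios moved the median of all genes from -0.84 to -0.67 in Dnmt3-deficient mice and gave 49 members higher and 3 lower there. The share of all genes called under this scaling is not given here.

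Several accessory subunits found by complex I symbols rose. Ndufb9 was at 158, 163 and 148 FPKM in Dnmt3-sufficient nB, 337, 387 and 365 in GCB, then 915, 775 and 979 in BMPC (2.50 ± 0.30 against nB, limma, adjusted p = 7.8e-06). Ndufs6, which binds zinc at the base of the hydrophilic arm, was at 81.7, 67.1 and 73.4 FPKM in nB and 418, 429 and 485 in BMPC (2.57 ± 0.35, adjusted p = 3.91e-05). Ndufa4, found here by its complex I symbol, was at 283, 281 and 260.3 FPKM in nB, 486, 559 and 541 in GCB, then 1212, 1290 and 1344 in BMPC, and at 1243, 869.9 and 954 in Dnmt3-deficient BMPC. Levels of each gene were in 3 separate steps with no overlap between cell types in Dnmt3-sufficient mice. Ndufa1, a small membrane-arm subunit encoded on the X chromosome, changed by 2.55 ± 0.33 in Dnmt3-deficient mice (adjusted p = 2.03e-05).

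In complexes III and V the same step was seen in Uqcrb and Uqcrq, small accessory subunits of complex III, and in Atp5g1. Uqcrb was at 471, 444 and 353 FPKM in Dnmt3-sufficient nB and 1294, 957 and 1252 in BMPC (1.46 ± 0.34, adjusted p = 0.00349 by limma). Uqcrq was at 159, 144 and 180.4 in nB, 261, 224 and 308 in GCB, then 636, 717 and 681 in BMPC (2.07 ± 0.31 against nB, adjusted p = 0.000103). Uqcrfs1 changed by 2.40 ± 0.71 (adjusted p = 0.0168) in Dnmt3-sufficient mice, a call that ended without Dnmt3-sufficient BMPC replicate 2 (2.29) or replicate 3 (2.27). In Dnmt3-deficient mice it was at 27.1, 3.37 and 12.1 FPKM in BMPC and changed by 0.35 ± 0.71 (adjusted p = 0.757).

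Against germinal center cells, plasma cells were higher in small subunits and lower in several catalytic or cofactor-bearing ones, and this contrast also moved with exon length. In Dnmt3-sufficient mice 17 members were higher in BMPC than in GCB (10 of complex I, 2 of III, 4 of IV and 1 of V), against 5.22% of all genes, and 5 were lower (1 each of complexes I, II and III and 2 of V), against 15.8%. In Dnmt3-deficient mice 8 were higher and 10 lower, against 4.99% and 19.9%. The medians were 0.71 and 0.38 over the members and -0.56 and -0.73 over all genes. Rescaling moved this split, to 26 higher and 4 lower (Dnmt3-sufficient) and 20 and 7 (Dnmt3-deficient) by the median of ratios and to 28 and 3 and 23 and 5 without the 100 most abundant genes. The Dnmt3-sufficient count of 22 was 13, 12 and 13 without BMPC replicate 1, 2 and 3 of that genotype. With each library's trend over exon length removed, 9 were higher and 1 lower in Dnmt3-sufficient mice. The shares of all genes called under these rescalings and this correction are not given here. Members that passed in both genotypes were Atp5g1, Cox6a2, Ndufa4, Uqcrq, Cox6b2 and Ndufa1 as higher and Atp5a1, Ndufs1, Atp5sl and Sdha as lower. The overlap over all genes was not counted. Among these, the Dnmt3-deficient call of Uqcrq ended in the fit to the groups compared and without BMPC replicate 1 (0.91). That of Cox6b2 in the same genotype ended with a pseudocount of 0.1 (4.30).

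A list of 15 mostly catalytic or cofactor-bearing subunits was described (Ndufs1, Ndufv1, Ndufs7, Ndufs8, Sdha to Sdhd, Uqcrfs1, Uqcrc1, Cox5a, Cox5b, Atp5a1, Atp5b and Atp5c1). Cox5a, Uqcrc1 and Atp5c1 in it are not catalytic and hold no cofactor, and Ndufv2, which holds an iron-sulfur cluster, is not in it. In BMPC against GCB 0 of them were higher and 4 were lower in Dnmt3-sufficient mice (median -0.25), while 17 of 62 other members were higher and 1 was lower (median 0.76). In Dnmt3-deficient mice 1 was higher (Ndufs7, 1.13 ± 0.28) and 5 lower (median -0.60), against 7 higher and 4 lower of the others (0.47). In BMPC against nB the list had 6 higher and 0 lower (0.50) in Dnmt3-sufficient and 1 higher and 3 lower (0.35) in Dnmt3-deficient mice. In GCB against nB the medians of the list (0.91 and 0.68) and of the others (0.77 and 0.65) lay close together. The difference between the 2 lists was not tested. The list's median in BMPC against GCB depends on its membership, and the second list given next still holds Atp5c1. With Ndufv2 (0.97 ± 0.35, adjusted p = 0.0555 by limma) and without Cox5a and Uqcrc1, a change made after seeing the data, 0 of 14 were higher and 3 lower in Dnmt3-sufficient mice (median 0.14) and 1 and 4 in Dnmt3-deficient mice (-0.36), and the medians in BMPC against nB were 1.01 and 0.62.

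Sdha, the succinate-oxidizing flavoprotein, was lower in BMPC than in GCB in both genotypes. It was at 108, 78.0 and 96.0 FPKM in Dnmt3-sufficient BMPC, below every nB and GCB library, and at 60.8, 23.7 and 29.0 in Dnmt3-deficient BMPC. The change against GCB was -1.11 ± 0.30 (adjusted p = 0.0128 by limma) in Dnmt3-sufficient mice, where the call ended under either rescaling (-0.97 and -0.85) without BMPC replicate 2 (-0.98) or 3 (-1.13), and with each library's trend over exon length removed (-0.33), an alternative added after seeing the data. In Dnmt3-deficient mice it was -2.52 ± 0.30 (adjusted p = 1.02e-05), and -2.44 ± 0.31 against nB (adjusted p = 2.18e-05). Its partner Sdhb was at 407, 346 and 470.4 FPKM in Dnmt3-sufficient BMPC, still above nB (1.01 ± 0.27, adjusted p = 0.00958). The membrane anchors Sdhc and Sdhd, which bind heme and ubiquinone, were also higher in BMPC than in nB in Dnmt3-sufficient mice (1.54 ± 0.50 and 1.67 ± 0.41).

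Ndufs1, the largest subunit of complex I, which carries iron-sulfur clusters on the way from NADH, was low in most BMPC libraries. It was at 47.8, 34.1 and 54.2 FPKM in Dnmt3-sufficient nB, 68.0, 69.7 and 51.2 in GCB, then 14.4, 3.74 and 34.8 in BMPC. Dnmt3-deficient BMPC were at 24.8, 1.57 and 17.1, with 9 reads in replicate 2. The change from GCB was -2.20 ± 0.64 (adjusted p = 0.0192 by limma) and -2.42 ± 0.64 (adjusted p = 0.00931). The calls ended without BMPC replicate 1 (-2.28) or 2 (-1.43) of the Dnmt3-sufficient and replicate 2 (-1.39) of the Dnmt3-deficient group, and in both genotypes by voom, in fits to the groups compared and with the length trend removed. Ndufv1, which binds NADH, was at 84.3, 226 and 116 FPKM in Dnmt3-sufficient BMPC against 225, 226 and 236 in GCB and did not pass (-0.80 ± 0.41, adjusted p = 0.174). Against nB, Ndufs1 passed in Dnmt3-deficient mice (-1.84 ± 0.67, adjusted p = 0.0477) but did not under most alternatives, among them leaving out BMPC replicate 2 (-0.82) or 3 (-2.22) or any nB library of this genotype, both rescalings and voom (-1.96).

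Cox5a, which joins complex IV early in its assembly, was low in BMPC of Dnmt3-deficient mice. The BMPC libraries of this genotype held 5.31, 1.07 and 2.55 FPKM, while its nB held 27.5, 35.0 and 39.1 and its GCB 26.4, 53.6 and 26.2. These BMPC libraries lay below the other 15. The change was -3.27 ± 0.64 against nB (limma, adjusted p = 0.00108) and -3.26 ± 0.61 against GCB (adjusted p = 0.000775), on 1 to 6 reads per BMPC library. In Dnmt3-sufficient mice it was at 38.8, 15.6 and 17.9 FPKM in BMPC and overlapped with both other cell types.

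Atp5a1 in plasma cells lay below its germinal center level and overlapped with nB. It was at 193, 312 and 204 FPKM in Dnmt3-sufficient BMPC and at 123, 149.9 and 191 in Dnmt3-deficient BMPC, below every GCB library. Against GCB the change was -1.32 ± 0.25 (adjusted p = 0.00092 by limma) and -1.84 ± 0.25 (adjusted p = 3.58e-05), and against nB 0.17 ± 0.26 and -0.52 ± 0.26. With the length trend removed the Dnmt3-sufficient call against GCB ended (-0.54, adjusted p = 0.179 by limma). Atp5b went the same way, with 436, 387 and 332 FPKM in Dnmt3-sufficient and 324, 319 and 210.0 in Dnmt3-deficient BMPC (-0.80 ± 0.23 and -1.14 ± 0.23 against GCB, of which the latter passed). Uqcrc1, a core protein of complex III, was lower than in GCB in Dnmt3-sufficient mice (-1.22 ± 0.36, adjusted p = 0.0192), but its value rested on BMPC replicate 2 (75.7 FPKM against 429 and 291), without which it was -0.48 and did not pass. The call also ended without the 100 most abundant genes (-0.95), in the fit to the groups compared and with the length trend removed (-0.87).

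Atp5sl, an assembly factor rather than a subunit, was the member with the largest fall from nB to BMPC in both genotypes. It was at 21.9, 42.4 and 74.6 FPKM in Dnmt3-sufficient nB, 21.4, 28.7 and 21.4 in GCB, then 8.85, 0 and 0 in BMPC. The change from nB was -4.30 ± 0.84 (adjusted p = 0.00108 by limma) in Dnmt3-sufficient and -3.33 ± 0.84 (adjusted p = 0.00732) in Dnmt3-deficient mice, and the latter call ended without BMPC replicate 1 (-2.51), by voom and with the length trend removed (-2.38). Against GCB it passed in both genotypes but ended without BMPC replicate 2 or 3 of the Dnmt3-sufficient group (-2.97 each) and without replicate 1 (-1.65) or 2 (-2.23) of the Dnmt3-deficient group. The Dnmt3-deficient call against GCB (-2.47, adjusted p = 0.0319 by limma) also ended with a pseudocount of 0.1 (-3.23), under either rescaling (-2.21 and -2.30), in the fit to the groups compared, by voom (-3.09) and with the length trend removed (-1.61).

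Several complex IV and V subunits come as paralogs, and some of these forms differed between cell types. Cox6a and Cox6b are accessory subunits of cytochrome c oxidase, with Cox6a2 known from heart and skeletal muscle and Cox6b2 from testis. Cox7a1 is the muscle form of Cox7a, Cox7a2 its widely expressed form and Cox7a2l a factor of respiratory supercomplexes. Atp5g1, Atp5g2 and Atp5g3 encode the same mature c-subunit with different import sequences. The promoters of 5 of these genes are shown to let the forms be compared, as the 250 bases before the transcription start in RefSeq on GRCm38.p6, written 5′ to 3′ on the strand of the gene. Capitals mark matches, on either strand, to the NRF1 core GCATGCGC, the GABP motif CCGGAAG or the Sp1 motif GGGCGG.
Cox6a1 (chr5:115348959-115349208, minus strand): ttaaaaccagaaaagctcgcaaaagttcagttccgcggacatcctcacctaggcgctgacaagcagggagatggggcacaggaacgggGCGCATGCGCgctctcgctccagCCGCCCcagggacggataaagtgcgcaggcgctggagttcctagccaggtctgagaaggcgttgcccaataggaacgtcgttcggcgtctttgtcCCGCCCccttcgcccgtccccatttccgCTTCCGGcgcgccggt
Cox6b1 (chr7:30626115-30626364, minus strand): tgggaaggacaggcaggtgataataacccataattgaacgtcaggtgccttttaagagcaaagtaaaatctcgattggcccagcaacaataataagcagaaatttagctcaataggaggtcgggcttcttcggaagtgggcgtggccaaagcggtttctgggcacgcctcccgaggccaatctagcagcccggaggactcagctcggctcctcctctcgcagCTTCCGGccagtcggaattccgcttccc
Cox6b2 (chr7:4753095-4753344, minus strand): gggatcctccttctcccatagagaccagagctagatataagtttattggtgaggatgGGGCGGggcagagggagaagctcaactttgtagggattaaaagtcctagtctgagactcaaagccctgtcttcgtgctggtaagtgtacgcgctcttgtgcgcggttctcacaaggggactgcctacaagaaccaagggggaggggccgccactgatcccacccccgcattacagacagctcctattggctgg
Cox7a1 (chr7:30183921-30184170, plus strand): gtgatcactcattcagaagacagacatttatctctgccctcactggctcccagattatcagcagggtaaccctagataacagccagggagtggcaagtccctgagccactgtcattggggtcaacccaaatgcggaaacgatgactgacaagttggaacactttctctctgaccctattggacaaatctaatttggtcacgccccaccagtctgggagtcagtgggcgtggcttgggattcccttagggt
Cox7a2 (chr9:79759854-79760103, minus strand): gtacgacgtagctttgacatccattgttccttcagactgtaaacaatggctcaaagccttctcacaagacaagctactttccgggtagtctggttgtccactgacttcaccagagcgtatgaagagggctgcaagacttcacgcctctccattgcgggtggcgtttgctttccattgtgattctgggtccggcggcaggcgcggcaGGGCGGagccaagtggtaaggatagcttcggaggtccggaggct

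Within these windows the widely expressed Cox6a1, Cox6b1 and Cox7a2 held 26, 14 and 14 CpG dinucleotides, and the tissue-restricted Cox6b2 and Cox7a1 held 8 and 4. Matches to the NRF1 core were in Cox6a1, to GABP in Cox6a1 and Cox6b1, and to Sp1 in Cox6a1, Cox6b2 and Cox7a2. Over windows of 300 bases (250 before and 50 after the start), 69 of the 82 members were found in the RefSeq table of 27025 genes. The NRF1 core was in 14.5% of these members and 3.05% of all genes, GABP in 23.2% and 9.93%, and the YY1 motif ATGGCGG in 15.9% and 4.69%. The Sp1 motif was in 40.6% and 38.2%, and the CRE TGACGTCA in 5.8% and 2.03%. Matches of different motifs may overlap. The median number of CpG was 19 for members and 8 for all genes. NRF1, GABP and YY1 are known regulators of genes for respiratory subunits, and a match to the letters is not evidence of binding.

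Cox6a2 was read in nB and BMPC and had no read in GCB. It was at 10.2, 9.92 and 38.3 FPKM in Dnmt3-sufficient nB, 0 in all 3 GCB libraries, and 22.1, 52.3 and 120.8 in BMPC, and at 7.41, 15.6 and 13.5, at 0, and at 75.3, 98.5 and 87.7 in Dnmt3-deficient mice. The groups did not overlap between GCB and either other cell type. Against a floor of 3 reads per library, GCB were at least 35.5-fold lower than nB in Dnmt3-sufficient and at least 22.4-fold lower in Dnmt3-deficient mice, and BMPC at least 118.7-fold and 160.9-fold higher than GCB. BMPC were higher than nB in Dnmt3-deficient mice (2.79 ± 0.75, limma, adjusted p = 0.0102). In Dnmt3-sufficient mice the libraries overlapped and the difference did not pass (1.65 ± 0.75, adjusted p = 0.109). Cox6a2 made up 2.53 to 12.5% of the summed Cox6a FPKM in nB and 5.27 to 19.5% in BMPC, and Cox6a1 the rest.

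Cox6b2 was read mainly in plasma cells. It was at 115, 155 and 147 FPKM in Dnmt3-sufficient and 79.1, 26.9 and 34.3 in Dnmt3-deficient BMPC, against at most 1.73 in nB and 3.77 in GCB. All BMPC libraries were thus above all others, and the 3 Dnmt3-sufficient BMPC libraries above the 3 Dnmt3-deficient ones. The change from nB was 6.63 ± 0.86 (limma, adjusted p = 2.12e-05) and 5.18 ± 0.86 (adjusted p = 0.000278), which depends on the pseudocount because nB held at most 7 reads. Cox6b2 reached 15.4% ± 2.68 of the summed Cox6b FPKM in Dnmt3-sufficient and 7.84% ± 2.25 in Dnmt3-deficient BMPC (SD, n = 3), and at most 0.609% in nB and 0.607% in GCB. The gene spans chr7:4703396-4704696 on the minus strand of mm9, and none of its 50-base windows had a copy elsewhere in that genome. Its rise of 1.45 in Dnmt3-deficient GCB rested on 19, 3 and 18 reads, and the call ended without GCB replicate 1 (1.17) or 3 (1.23) or nB replicate 1 or 2 (1.33 each).

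Cox7a1, in contrast, was read in the germinal center. It was at 7.06, 1.79 and 6.13 FPKM in Dnmt3-sufficient and 10.5, 5.75 and 13.6 in Dnmt3-deficient GCB, where nB held 2.04, 0 and 0 and then 0 in all 3 libraries. GCB were higher than nB by 1.91 ± 0.48 (limma, adjusted p = 0.00412) in Dnmt3-sufficient mice and, against a floor of 3 reads per library, at least 9.14-fold in Dnmt3-deficient mice. The Dnmt3-sufficient call ended in the fit to the groups compared (adjusted p = 0.0912 by limma), and GCB replicate 2 lay below nB replicate 1. BMPC held no read of it in Dnmt3-sufficient libraries and 3.35 FPKM in 1 Dnmt3-deficient library. BMPC were lower than GCB in Dnmt3-deficient mice (-2.68 ± 0.89, adjusted p = 0.0343), and the call ended without GCB replicate 3 (-2.43) or BMPC replicate 2 or 3 (-2.32 each), with a pseudocount of 0.1, without the 100 most abundant genes, in the fit to the groups compared and by voom (-2.82). Its level stayed small, at 0.332 to 2.31% of the summed Cox7a FPKM in GCB. Cox7a2 grew from 29.6 to 34.3% of this sum in nB to 43.8 to 50.01% in BMPC, while Cox7a2l went from 65.6 to 70.4% down to 49.99 to 56.2%.

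Among the c-subunit genes, Atp5g1 was the one that rose most in plasma cells. It was at 88.7, 124 and 122 FPKM in Dnmt3-sufficient nB, 239, 196 and 278 in GCB, then 642, 552 and 684 in BMPC, with 368, 372 and 407 in Dnmt3-deficient BMPC. Against nB the change was 2.49 ± 0.37 (limma, adjusted p = 8.43e-05) and 1.98 ± 0.37 (adjusted p = 0.000727), and against GCB 1.40 ± 0.35 (adjusted p = 0.00827) and 1.02 ± 0.35 (adjusted p = 0.0412). The Dnmt3-sufficient call against GCB ended without BMPC replicate 1 (1.38) or 3 (1.33). Its share of the summed Atp5g FPKM lay between 17.4 and 27.5% in nB, between 18.7 and 23.8% in GCB and between 28.3 and 40.4% in BMPC. Atp5g2 (485, 504 and 610.3 FPKM in Dnmt3-sufficient BMPC) and Atp5g3 (462, 485 and 577) changed against GCB by 0.34 ± 0.25 and 0.18 ± 0.23, which did not pass. Every 50-base window of Atp5g2 and 29.4% of those of Atp5g1 have a copy elsewhere in mm9, so the values of these 2 genes are uncertain.

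**Figure D4:**
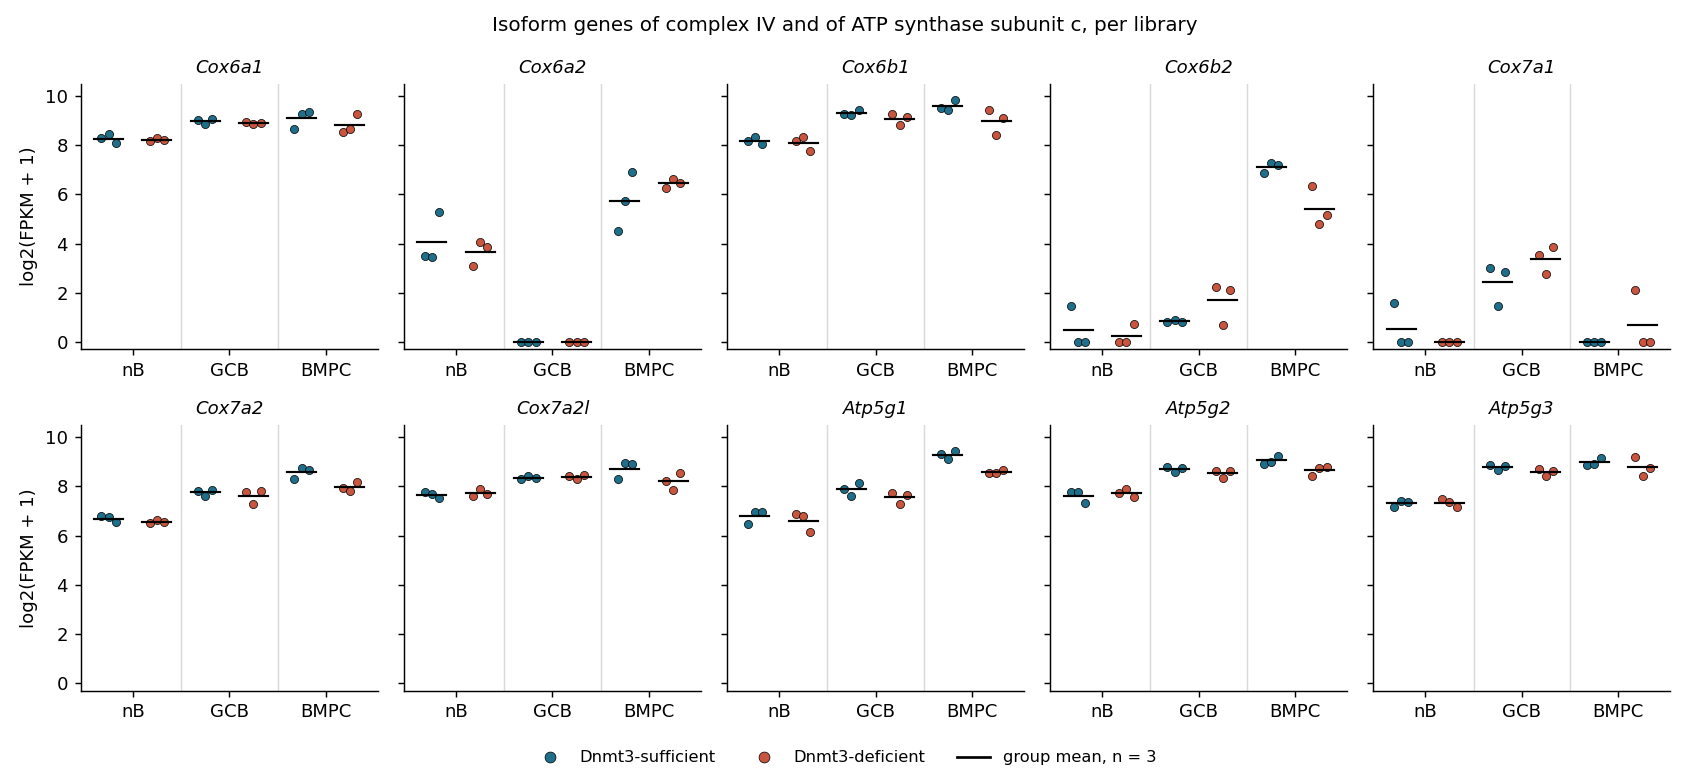
Level as log2(FPKM + 1) (y axis) of the paralogs Cox6a1 and Cox6a2, Cox6b1 and Cox6b2, Cox7a1, Cox7a2 and Cox7a2l, and Atp5g1 to Atp5g3 in each library, by cell type and genotype. Cox6a2 is at 0 in all GCB libraries, Cox6b2 is above 26 FPKM only in BMPC, and Cox7a1 is mainly read in GCB.

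Loss of Dnmt3a and Dnmt3b was compared within each cell type. In nB the median change of the members (Dnmt3-deficient minus Dnmt3-sufficient) was -0.03, against 0.00 over all genes. None passed by limma, against 0.0868% of all genes. At an unadjusted p under 0.05 there were 2 members higher and 0 lower, against 3.19% and 2.22% of all genes, and voom on the recovered reads gave 0 that passed. Cox5a had the largest difference (0.81 ± 0.37, adjusted p = 0.889), at 12.1, 21.4 and 24.9 FPKM in Dnmt3-sufficient and 27.5, 35.0 and 39.1 in Dnmt3-deficient nB, which did not overlap. Groups did not overlap in 3 members as higher and 2 as lower, against 4.66% and 4.17% of all genes. Erythroid markers differed between the genotypes in nB, at 0.705 to 1.42 FPKM in Dnmt3-sufficient and 26.5 to 289.8 in Dnmt3-deficient libraries, with 2 of the 7 called higher, and their part in these values was not tested.

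In GCB the members lay slightly lower in Dnmt3-deficient mice. The median change was -0.18, against 0 over all genes, and 68 of the 78 were below 0, but none passed by limma (0.0174% of all genes did) or by voom. At an unadjusted p under 0.05, 9 were lower, against 2.93% of all genes, and 2 higher, against 3.39%. In 11 members all Dnmt3-deficient libraries were below all Dnmt3-sufficient ones, against 5.05% of all genes, and in 0 above, against 5.58%. Among the 11 was Ndufs5, an accessory subunit of complex I, at 142, 145 and 141 FPKM in Dnmt3-sufficient and 117, 84.3 and 99.7 in Dnmt3-deficient GCB (-0.51 ± 0.16, adjusted p = 0.496). Dnmt3-deficient replicate 2 was lowest in many members and had the lowest sum in every complex, with 5046 FPKM in complex I against 7054 and 6755. Without it the median of the members was -0.04. Erythroid markers summed to 0.352 to 14.1 FPKM in Dnmt3-sufficient and 14.2 to 48.2 in Dnmt3-deficient GCB, with 0 of 7 called, and their part was not tested.

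In BMPC the members were lower in Dnmt3-deficient mice by a median of -0.45, against -0.05 over all genes. The median was -0.27 by the median of ratios (0 over all genes) and -0.09 with the length trend removed (0.06 over all genes). None passed by limma, against 0.0608% of all genes as higher and 0.0868% as lower, and none by voom. At an unadjusted p under 0.05, 6 were lower, against 4.99%, and 0 higher, against 2.56%. In 30 members all 3 Dnmt3-deficient libraries were below all 3 Dnmt3-sufficient ones, against 7.31% of all genes, and in 0 above, against 3.02%. The summed FPKM of all members in Dnmt3-deficient BMPC was 0.754 of that in Dnmt3-sufficient BMPC, between 0.692 in complex IV and 0.807 in complex III. The sums did not overlap between the genotypes in complexes I, IV and V (10520, 8356 and 10320 against 12810, 12390 and 13150 in complex I).

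The largest differences between the genotypes in BMPC were in Cox5a, Uqcrfs1, Cox6b2 and Sdha. Cox5a was at 38.8, 15.6 and 17.9 FPKM in Dnmt3-sufficient and 5.31, 1.07 and 2.55 in Dnmt3-deficient BMPC (-2.69 ± 0.82, limma, adjusted p = 0.307), with 1 to 6 reads in the latter. Uqcrfs1 was at 37.1, 62.9 and 64.6 and at 27.1, 3.37 and 12.1 FPKM (-2.21 ± 0.91, adjusted p = 0.576). Sdha changed by -1.40 ± 0.41 (adjusted p = 0.261). Groups did not overlap in any of the 4, and none passed. Without the weights that give BMPC libraries less influence, 3 members passed as lower, Cox5a and Uqcrfs1 among them, where 459 of all genes passed. Erythroid markers moved with genotype in BMPC (4530 to 7236 FPKM in Dnmt3-sufficient and 1534 to 4359 in Dnmt3-deficient libraries, which did not overlap), as did depth, and their part in these values was not tested.

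The difference between genotypes in the cell type changes was tested as an interaction, and no member passed by limma in any of the 3. The medians were -0.17 for GCB against nB, -0.46 for BMPC against nB and -0.29 for BMPC against GCB, beside -0.00, -0.16 and -0.14 over all genes. At an unadjusted p under 0.05 there were 1 higher and 1 lower for GCB against nB, where 2.47% and 3.06% of all genes were. There were 0 and 6 for BMPC against nB (2.21% and 4.76%) and 0 and 4 for BMPC against GCB (2.29% and 4.51%), and voom gave 0 that passed. Of all genes, 0.026%, 0.104% and 0.0694% passed. A larger count of calls in Dnmt3-sufficient than in Dnmt3-deficient mice is therefore not shown to be a difference between them.

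Subunit genes are short, and length moved with the plasma cell contrasts. The exons of the tested members summed to a median of 715.5 bases (292 to 4224), against 3102.5 over all genes tested. Those of the 15 subunits listed above as mostly catalytic or cofactor-bearing summed to 1313.0, against 633.5 for the other members. In BMPC against nB of Dnmt3-sufficient mice, the median change over all genes was 0.04 up to 600 bases, 0.75 from 600 to 1000, -0.04 from 1000 to 2000 and -0.98 above 2000. The members' medians in these bins were 1.49, 1.65, 1.01 and 0.73, above that of all genes in each bin, and 27 of 30, 15 of 21, 10 of 19 and 4 of 8 members were higher, against 25.65%, 29.78%, 13.57% and 4.06% of all genes. The lower calls of BMPC against GCB in Dnmt3-sufficient mice all lay above 1000 bases, 1 of 19 members up to 2000 and 4 of 8 beyond. Spearman's correlation of change with length was -0.42 over members and -0.29 over all genes in BMPC against nB, and -0.08 and -0.20 in GCB against nB (Dnmt3-sufficient). Genes are not independent replicates, and the points share their libraries.

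**Figure D5:**
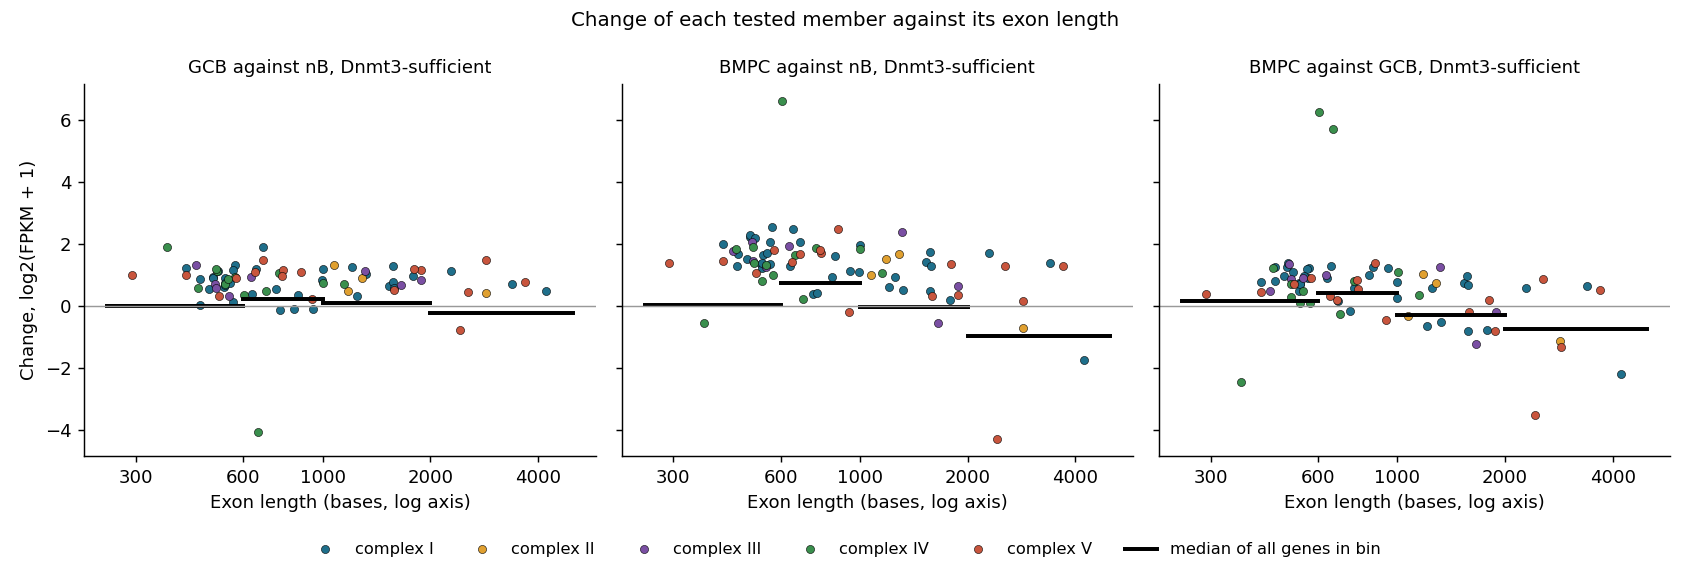
Change on the log2(FPKM + 1) scale (y axis) of each tested member against the summed length of its exons (x axis, log scale), in the 3 cell type contrasts of Dnmt3-sufficient mice. Black bars are medians of all genes in 4 length bins, which run from 0.04 at up to 600 bases to -0.98 above 2000 bases in BMPC against nB.

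With the length trend of each library removed, 31 members passed as higher and 1 as lower in BMPC against nB of Dnmt3-sufficient mice, with a median of 0.83, and 22 and 2 in Dnmt3-deficient mice (0.70). In GCB against nB there were 12 higher and 1 lower (median 0.62) and 9 and 1 (0.52), and in BMPC against GCB 9 and 1 (0.30) and 8 and 4 (0.23). The shares of all genes called with the trend removed are not given here, so whether the members exceed them is not shown. Of the lower calls in Dnmt3-sufficient BMPC against GCB, those of Atp5a1 (-0.54), Sdha (-0.33), Ndufs1 (-1.37) and Uqcrc1 (-0.87) ended, and Sdha in BMPC against nB was 0.17. Of the members named above as higher than in GCB in both genotypes, the Dnmt3-sufficient calls of Ndufa1 (0.78) and Uqcrq (0.74) ended. So did the Dnmt3-deficient call of Uqcrq (0.85).

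Genes around the complexes behaved in different ways. Of 7 tested subunits and carriers that the symbols missed, 5 were higher in BMPC than in nB in each genotype, against 7.94% and 5.21% of all genes, with a median of 1.68 and 1.34, led by Atpif1, the inhibitor of ATP synthase running backwards (3.74 ± 0.46, limma, adjusted p = 1.1e-05, in Dnmt3-sufficient mice), and Cycs, cytochrome c (1.95 ± 0.34, adjusted p = 0.000371). Cox4i1, the largest nuclear subunit of complex IV, changed by 1.43 ± 0.24. Of 42 assembly factors, 4 were higher and 1 lower in BMPC than in nB in Dnmt3-sufficient and 1 and 4 in Dnmt3-deficient mice, with medians of 0.14 and -0.19. Of all genes 7.94% and 5.21% were higher in these contrasts and 19.2% and 21.6% lower, so the assembly factors' share of higher calls lay near or under that of all genes. The copper chaperone Cox17 (1.73 ± 0.30) was among the higher ones. Of 16 genes of the citric acid cycle, 1 rose in GCB against nB in each genotype (median 0.55), against 12.1% and 10.7% of all genes, and in BMPC against GCB 0 were higher and 2 and 6 lower in the 2 genotypes (medians -0.60 and -1.22), where 15.8% and 19.9% of all genes were lower. Citrate synthase Cs was among them (-1.75 ± 0.31, adjusted p = 0.00053).

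Regulators of mitochondrial biogenesis, the factors that control nuclear and mitochondrial genes of the chain, had more lower than higher calls in BMPC, as all genes did. Of 18 tested, 1 was higher and 5 were lower in BMPC than in nB in Dnmt3-sufficient mice and 0 and 5 in Dnmt3-deficient mice, with medians of -0.94 and -1.54, below those of all genes (-0.70 and -0.84). Of all genes 19.2% and 21.6% were lower and 7.94% and 5.21% higher. Nrf1, whose motif was counted above, was lower by limma in both genotypes (-2.09 ± 0.64, adjusted p = 0.0211, and -3.01 ± 0.64, adjusted p = 0.00213). Fumarase Fh1 was the gene of these lists that passed between the genotypes in BMPC, as lower in Dnmt3-deficient mice (-2.22 ± 0.40, adjusted p = 0.0303 by limma). In nB and GCB, 0 of the structural, assembly, citric acid cycle and biogenesis genes passed between the genotypes.

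The identity of some members rests on reads that other places in the genome could have given. Of 81 members scanned in 50-base windows of their longest coding transcript, 38 had no window with an exact copy elsewhere in mm9. Copies of over 10% of the windows were found in 23 and of over 50% in 6 (Atp5g2, Atp5l, Cox5b, Uqcrb, Atp5h and Cox7a2l). These transcripts can differ from the exons counted, as in Atp5g1, with 4666 windows against 868 bases of exons. Ndufs5 had 49.8%, Ndufa4 6.5% and Cox5a 3.1%. The use of strand in counting is not given in the sources used here, so reads of overlapping antisense genes cannot be told apart.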

How the data were processed

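The authors mapped read pairs to mm9 with TopHat, reporting at most 1 alignment per read, and counted reads on UCSC KnownGenes exons with summarizeOverlaps. This setting does not remove reads that match several places. The deposited FPKM values scale these counts by exon length and by the reads on listed genes. Per the labels' processing notes Picard, R 3.2.2 and edgeR 3.12.1 were used. The deposited columns of the authors' comparisons (log2 fold changes and adjusted p-values) were not used, and 0 columns belonged to other samples. FPKM gave whole reads (tolerance 0.01) for every value, so depth was recovered. Amplified reads are not independent molecules, so floors of 3 reads cover counting error only.

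Values were tested with limma 3.58.1 in R 4.3.3 on log2(FPKM + 1), which understates changes of low genes. It used 6 group means over 18 libraries, a weight per cell type (1.41 in nB, 2.51 in GCB, 0.283 in BMPC), an intensity trend, two-sided tests and Benjamini-Hochberg adjustment over 11522 genes. Code was tested on simulated data. Members, lists and alternatives were chosen with earlier results of these data known. Named were the 5 largest passing changes each way per comparison (3 by value where fewer than 3 passed), the extremes of each complex, paralogs, catalytic subunits and the 2 leading genes of lists, with further members named as examples after their values were seen. Alternatives were a pseudocount of 0.1, 2 other filters, 2 scalings, fits to the groups compared, sex, weights, voom, an adjusted p of 0.01, no minimum change, each library left out, a replicate block and, added after seeing the data, a length correction and a second catalytic list. Windows of the longest coding transcripts were compared with the mm9 genome, and promoters came from RefSeq. Values of 1 member are not reported here, and the catalytic list and the heat map leave it out.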

Additional observations from a re-analysis of the deposited data

Results flagged for a closer look

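In 3 of the 78 tested members the genotypes lay apart in opposite directions in nB and BMPC, with all Dnmt3-deficient libraries above all Dnmt3-sufficient ones in nB and below them in BMPC, as in 0.33% of all genes tested. No genotype change of these members passed in either cell type with the weights used. For Cox5a the change was 0.81 in nB and -2.69 in BMPC, a difference of -3.51 ± 0.90 (SE, limma interaction, adjusted p = 0.237). For Sdha it was 0.35 and -1.40, a difference of -1.74 ± 0.44 (adjusted p = 0.226). For Ndufs6 it was 0.53 and -0.77, a difference of -1.30 ± 0.50 (adjusted p = 0.592). The difference did not pass for any of the 3. Without weights per cell type that of Cox5a did (-3.51, adjusted p = 0.0218 by limma). The summed erythroid markers lay apart in the same directions, at 26.5 to 289.8 FPKM in Dnmt3-deficient and 0.705 to 1.42 in Dnmt3-sufficient nB, and at 1534 to 4359 and 4530 to 7236 in BMPC, and their part was not tested. Ndufs6 in nB ran at 107, 129.5 and 88.1 FPKM without Dnmt3 and at 81.7, 67.1 and 73.4 with it, and in BMPC at 263, 254 and 259 and at 418, 429 and 485. Cox5a in Dnmt3-deficient BMPC rests on 6, 1 and 4 reads.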

How the results depend on the processing

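Counts in this section are of members only, without the share of all genes called under each alternative. Under the alternatives, the counts of members that passed kept to within 1.5 times of those reported except as follows. Without weights per cell type, 3 members passed between the genotypes in BMPC and 1 in the interaction of BMPC with nB, and by adjusted p alone 6 and 1, with 34 in Dnmt3-deficient GCB against nB and 46 in Dnmt3-sufficient BMPC against GCB. Fits to the groups compared gave 11 in Dnmt3-deficient BMPC against GCB, and 12 and 44 by adjusted p alone in the Dnmt3-deficient and Dnmt3-sufficient contrast. Median of ratios scaling gave 52 in Dnmt3-deficient BMPC against nB, and rescaling without the 100 most abundant genes 61 there and 28 in BMPC against GCB. With no minimum change 59 and 55 passed in GCB against nB. At an adjusted p of 0.01, 13 passed in Dnmt3-sufficient BMPC against GCB, and by p alone 14 in each genotype and 24 in Dnmt3-deficient BMPC against nB. By voom, p alone gave 15 in Dnmt3-deficient BMPC against GCB and 25 against nB. With the length trend removed 13 and 10 passed in GCB against nB, 32 in Dnmt3-sufficient BMPC against nB and 10 against GCB (15 by p alone).

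Medians also moved. By the median of ratios they were -0.27 for genotype in BMPC, 0.68 and 1.18 in Dnmt3-deficient BMPC against GCB and nB, and -0.26 in the interaction of BMPC with nB. Without the 100 most abundant genes they were 0.79 and 1.32 in the same contrasts, and 0.98 and 1.66 in Dnmt3-sufficient mice. With the length trend removed they were 0.62 in Dnmt3-sufficient GCB against nB, 0.83 and 0.70 in BMPC against nB, 0.30 in Dnmt3-sufficient BMPC against GCB, -0.094 for genotype in BMPC, and -0.12 and -0.012 in the interactions of BMPC with nB and GCB.

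With each library left out in turn, the counts ranged from 12 to 21 in Dnmt3-sufficient BMPC against GCB (13 to 28 by p alone, 14, 14 and 13 without BMPC replicates 1, 2 and 3), 16 to 30 by p alone in Dnmt3-deficient mice (17 and 16 without BMPC replicates 1 and 3), 27 to 45 by p alone in Dnmt3-deficient BMPC against nB (27 without either of these), and 10 to 24 in Dnmt3-deficient GCB against nB (10 without GCB replicate 1). For the lowest and highest library left out the medians stayed above 0 in all 6 cell type contrasts, and in nB the genotype median ranged from -0.09 to 0.08.

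Of single members, 8 values reversed. With libraries left out, Atp5s between genotypes in BMPC ranged from -0.57 (without Dnmt3-sufficient replicate 3) to 1.83, and its interaction with GCB from -0.47 to 1.93. Atp5sl ranged from -0.19 (without Dnmt3-deficient replicate 3) to 1.97, with interactions from -0.0002 to 2.15 (GCB) and -0.085 to 2.07 (nB). Cox5a in GCB ranged from -0.013 (without Dnmt3-deficient replicate 2) to 0.49, Cox6a2 in nB from -0.73 to 0.19 (without Dnmt3-sufficient replicate 3), and Sdha in Dnmt3-sufficient BMPC against nB was 0.17 with the length trend removed. A further 85 lost and 5 gained a call, and 1707 did neither. The causes were not tested.

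Same-numbered GCB libraries of the 2 genotypes did not deviate together (correlations 0, -0.017 and 0.026). Deviations from means of 3 libraries cannot show whether libraries were paired, and the sample titles of same-numbered ones share a stem. Whether they are pairs is not known. A replicate block gave 0 members that passed between the genotypes in GCB and a median of -0.18. BMPC depth limits members with few reads, such as Cox5a and Ndufs1.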
